A study of Mus musculus with 12 samples.

Results

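The genes of the proteasome were followed through the ventricles of mice given saline, angiotensin II (Ang II), or Ang II with Forsythoside I (FI). They were taken as every gene of the count table whose symbol is Psm, a letter from a to g and a number, which gave 48 of 55421 listed genes. Psmb8, Psmb9 and Psmb10, which encode the inducible catalytic subunits of the immunoproteasome, were kept apart as 3 immunoproteasome genes, and the other 45 are called the standard genes. Of the 48, 47 had enough counts to be tested. The exception was Psmb11, the thymus-specific beta subunit, with 20 counts in saline 2 and 0 counts in the other 11 libraries.

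All mice were wild type (WT), and RNA sequencing of ventricular tissue gave 3 groups of 4 libraries. Saline mice received saline and vehicle, and Ang II mice received vehicle and Ang II, a pressor peptide that also drives growth of the heart, from an osmotic minipump under the skin. Ang II + FI mice had the same pump and were injected with FI, a phenylethanoid glycoside of Forsythia, into the abdomen at 50 mg/kg on alternate days, starting a day ahead of the pump and ending on day 14. No group received FI with saline. The labels do not say whether each library came from its own animal, so p-values measure the spread between these libraries only.

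The libraries held 68874852 to 80624227 counts. The 8 markers of cardiomyocytes summed to 30110 to 43339 CPM (a gene's counts relative to those of its library) in each, as the tissue label says. The library Ang II + FI 3 held 25552 CPM on 16 hepatocyte markers against 28.6 to 95.8 CPM in the other 11, and 29.1% of its counts were mitochondrially encoded against 34.0% to 38.8%. Counts and medians in the comparisons with FI are therefore also given without Ang II + FI 3, as are the values of genes that this library moved by over 1.5 times. CPM are scaled here by the TMM method to the library totals. A gene is called changed when its edgeR p-value, adjusted by the Benjamini-Hochberg method over 17376 tested genes, lies under 0.05.

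The proteasome is the protease that degrades proteins tagged with ubiquitin. Its 20S core is a barrel of alpha rings, which gate the entry, and beta rings, which hold the catalytic sites. The 19S cap recognises, unfolds and feeds in the substrate. Under interferon, and in immune cells, Psmb8, Psmb9 and Psmb10 take the places of Psmb5, Psmb6 and Psmb7 in newly built cores, which changes the peptides offered to class I antigen presentation. In the heart muscle, which renews its contractile proteins slowly, the proteasome shares protein quality control with autophagy.

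The genes of the core and the cap were abundant in the saline ventricle, and their levels per kb of exon were spread over about an order of magnitude. Divided by the length of their exons, the 31 subunit genes ranged 13.5-fold, from 6.53 ± 0.62 CPM per kb for Psmd11 to 88.4 ± 4.13 CPM per kb for Psmb5 (mean ± SD, n = 4), with a median of 28.6. Psmb5 encodes the chymotrypsin-like catalytic subunit. Next came Psma6 at 70.0 ± 2.62 and Psmb4 at 61.8 ± 2.81 CPM per kb, an alpha and a non-catalytic beta subunit. Neighbours in the middle of the order, such as Psmc6 (39.6 ± 3.25), Psmb6 (39.4 ± 3.73) and Psma1 (38.7 ± 2.22), did not differ beyond their SD. The lengths are those of the union of all annotated exons, so a gene with long rare exons is placed too low. Much of the range comes from the division by length. Without it the saline means of the 31 genes ran from 37.7 CPM for Psma5 to 139 CPM for Psmc6. Psmd11 was then at 41.7 CPM and Psmb5 at 79.5 CPM.

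Outside the particle itself the order was led by Psme4, the PA200 activator, at 29.0 ± 0.95 CPM per kb. The PA28 subunits Psme1 and Psme2 lay at 26.7 ± 2.49 and 14.6 ± 1.94 CPM per kb. The lowest values belonged to regulators and assembly factors: the inhibitor PI31 (Psmf1) at 2.36 ± 0.03, and the chaperones Psmd5, Psmg3 and Psmd9 at 2.31 ± 0.14, 1.92 ± 0.34 and 1.88 ± 0.14 CPM per kb. Psma8, the testis-specific alpha subunit, had 26 to 87 counts per library, and its fold changes are too uncertain to be read as differences. It is kept among the 44 standard genes tested and in the alpha ring medians, and it marks the end of some ranges below.

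The immunoproteasome genes were unequal at baseline. Psmb10, at 16.4 ± 0.80 CPM per kb, lay within the range of the standard subunits, while Psmb8 at 2.75 ± 0.32 and Psmb9 at 1.86 ± 0.29 CPM per kb lay below all 31 of them. As a share of the standard subunit each replaces, counts per kb of Psmb8 were 2.72% to 3.50% of Psmb5 in the saline libraries. Those of Psmb9 were 3.58% to 6.12% of Psmb6, and those of Psmb10 42.6% to 54.9% of Psmb7. These shares depend on the exon lengths, such as 3381 bases for Psmb8 and 899 for Psmb5, or 1705 for Psmb10 and 3421 for Psmb7. Without division by length the saline means were 9.30 CPM for Psmb8 against 79.5 for Psmb5. They were 6.81 for Psmb9 against 73.7 for Psmb6, and 28.0 for Psmb10 against 118 for Psmb7. On that measure Psmb10 also lay below all 31 standard subunits.

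**Figure D1:**
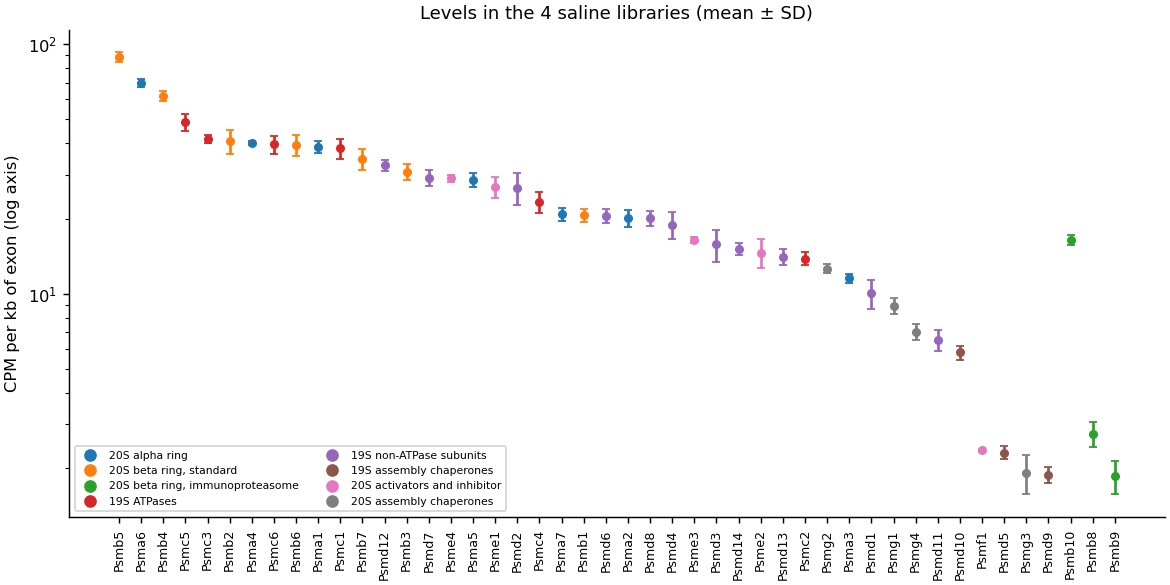
Mean level of 46 proteasome genes in the 4 saline libraries (vertical axis, CPM per kb of exon, log scale; bars are SD), with genes ordered by level and the 3 immunoproteasome genes placed at the right. Psma8 and Psmb11 are not drawn. Levels run from 1.86 for Psmb9 to 88.4 for Psmb5, and Psmb8 and Psmb9 sit at the lower end while Psmb10 sits among the standard subunits.

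Psmb8 and Psmb9 lie close together on chromosome 17 (GRCm38). Psmb8 is at 34197721 to 34201454 on the plus strand and Psmb9 at 34181987 to 34187764 on the minus strand. Psmb10 lies on chromosome 8 at 105935735 to 105938444. Psmb9 is transcribed away from Tap1, a peptide transporter gene, and both start from the same short region. Tap1 starts on the side of Psmb9 that faces Psmb8, and so lies between them. The upstream sequences of Psmb9 and Psmb8 are shown because the values of these nearby genes differed in sign below. That of Psmb5 is shown because it is the standard counterpart of Psmb8. They come from RefSeq (GRCm38.p6) and read 5′ to 3′ on the strand of the gene. The windows of Psmb8 and Psmb5 end at their RefSeq starts. These starts and that of Psmb9 lie inside the longer gene spans from GENCODE, given above and 54614119 to 54618022 for Psmb5. The printed stretches of Psmb8 and Psmb9 lie wholly inside their spans, so they are upstream of the RefSeq start only. Capitals mark a match to the gamma-activated sequence TTCNNNGAA in Psmb8, and to the antioxidant response element core TGACNNNGC, bound by NRF1 and NRF2, in Psmb5. The region of Psmb9 has neither, nor the interferon-stimulated response element, searched as GAAA, any 2 bases, GAAA.
Psmb9 and Tap1, chr17:34187331-34187555, minus strand: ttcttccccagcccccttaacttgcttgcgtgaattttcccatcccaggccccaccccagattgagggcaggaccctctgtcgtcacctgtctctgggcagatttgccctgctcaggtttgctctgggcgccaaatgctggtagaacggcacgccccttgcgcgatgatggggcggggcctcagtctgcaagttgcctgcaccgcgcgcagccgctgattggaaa
Psmb8, chr17:34197945-34198194, plus strand: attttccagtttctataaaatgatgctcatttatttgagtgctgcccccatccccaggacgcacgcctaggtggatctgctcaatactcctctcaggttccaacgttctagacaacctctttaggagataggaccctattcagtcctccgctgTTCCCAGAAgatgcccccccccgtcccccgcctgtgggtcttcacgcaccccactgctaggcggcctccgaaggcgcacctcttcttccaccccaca
Psmb5, chr14:54617996-54618245, minus strand: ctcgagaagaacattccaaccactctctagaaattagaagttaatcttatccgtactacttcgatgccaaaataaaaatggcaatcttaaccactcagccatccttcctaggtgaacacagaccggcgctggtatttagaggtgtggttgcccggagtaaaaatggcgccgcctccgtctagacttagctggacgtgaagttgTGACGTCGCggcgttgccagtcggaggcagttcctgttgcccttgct

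RefSeq gave a start for 40 of the 48 genes, 37 of them standard, and the 250 bases before it were searched on both strands. TGACNNNGC was found in 5 of the 37 standard genes, or 13.5%, against 11.5% of 27025 genes, and in none of the 3 immunoproteasome genes. Among the standard genes the interferon-stimulated response element was found in 3 (8.11% against 3.46% of all genes) and TTCNNNGAA in 1 (2.70% against 8.13%). The GC box GGGCGG was present in 21 of 37, or 56.8%, against 35.4% of all genes, and CCAAT in 13, or 35.1%, against 37.5%. These are matches of letters only.

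Under Ang II the values of the 3 immunoproteasome genes did not point one way. Psmb8 and Psmb10 were higher than with saline in every Ang II library, while the mean of Psmb9 was lower, and none of the 3 passed the adjusted threshold. Psmb8 was at 7.72, 10.2, 9.80 and 9.46 CPM in saline 1 to 4, at 12.5, 14.0, 11.7 and 13.2 CPM in Ang II 1 to 4, and at 14.6, 10.8, 11.2 and 13.4 CPM in Ang II + FI 1 to 4. All 8 libraries with Ang II lay above all 4 saline libraries, and the groups with and without FI overlapped. The log2 fold change of Ang II against saline was 0.47 ± 0.12 (SE), with an edgeR adjusted p of 0.068. Over 23 alternative settings it ranged from 0.39 to 0.52 and the adjusted p from 0.0164 to 0.181. Psmb8 passed in 2 of them, DESeq2 (adjusted p = 0.0164, where 3.76% of all genes were called higher) and the edgeR fit without Ang II + FI 3 (adjusted p = 0.0498, where 2.49% were). With FI the difference from Ang II was −0.03 ± 0.12 (95% interval −0.30 to 0.23), and 0.004 without Ang II + FI 3. Against saline, Ang II + FI gave 0.43 ± 0.12 (adjusted p = 0.10 by edgeR and 0.0350 by DESeq2).

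Psmb10, the inducible trypsin-like subunit, was at 27.2, 28.2, 26.6 and 29.8 CPM in the saline libraries, at 33.5, 32.8, 31.7 and 30.9 CPM with Ang II, and at 35.7, 36.4, 30.5 and 36.8 CPM with Ang II + FI. The saline libraries again lay below all others, and the 30.5 CPM of Ang II + FI 3 was the lowest of the other 8. The log2 difference of Ang II from saline was 0.21 ± 0.07 (edgeR adjusted p = 0.17), and that of Ang II + FI from saline was 0.33 ± 0.07 (edgeR adjusted p = 0.055). Without Ang II + FI 3 the latter was 0.37 with an edgeR adjusted p of 0.0343, where 0.932% of all genes were called higher. Over the alternatives its adjusted p ranged from 0.00465 to 0.156, and 3 of 23 were under the threshold. Ang II + FI against Ang II gave 0.12 ± 0.07 (95% interval −0.04 to 0.28). The same comparison gave 0.17 without Ang II + FI 3 (95% interval 0.01 to 0.34), with an edgeR adjusted p of 0.61 and an unadjusted p of 0.0424. The other 3 FI libraries, at 35.7 to 36.8 CPM, lay above all Ang II libraries, as 4.37% of all tested genes did without that library.

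Psmb9, which replaces the caspase-like subunit Psmb6, was at 6.36, 8.30, 6.71 and 5.86 CPM with saline, at 6.05, 5.42, 4.40 and 4.57 CPM with Ang II, and at 6.18, 5.56, 6.00 and 7.75 CPM with Ang II + FI. Of the 4 Ang II libraries 3 lay below every saline library and the groups overlapped. The log2 difference of Ang II from saline was −0.41 ± 0.16 (edgeR adjusted p = 0.20, range over the alternatives 0.127 to 0.396), and that of Ang II + FI from Ang II was 0.33 ± 0.16 (edgeR adjusted p = 0.51). Per the GENCODE M21 annotation 212 exon bases of Psmb9 overlap Tap1 and 498 of Psmb8 overlap Gm20496, both on the opposite strand. The strand setting of the counting is not stated in these sources, and reads of the 2 genes of a pair may not be told apart there. Tap1 itself was at 6.99 to 8.24 CPM with saline, 4.39 to 12.6 CPM with Ang II and 5.42 to 12.6 CPM with Ang II + FI, with overlapping groups (log2 difference of 0.14 ± 0.30 for Ang II against saline).

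The balance between Psmb8 and Psmb9 also differed within the libraries. Counts per kb of Psmb8 were 131%, 133%, 158% and 175% of those of Psmb9 in saline 1 to 4, 224%, 280%, 289% and 313% in Ang II 1 to 4, and 255%, 210%, 202% and 187% in Ang II + FI 1 to 4. No library with Ang II reached down to the saline range, and the Ang II + FI libraries lay between, overlapping the Ang II range. This ratio was formed after the values of both genes had been seen, so no test is given. Psmb8 relative to Psmb5 was also higher with Ang II, at 3.66% to 4.98%, than with saline, and the Ang II + FI range of 3.25% to 4.23% overlapped both. The ratios of Psmb9 to Psmb6 and of Psmb10 to Psmb7 overlapped between all 3 groups.

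**Figure D2:**
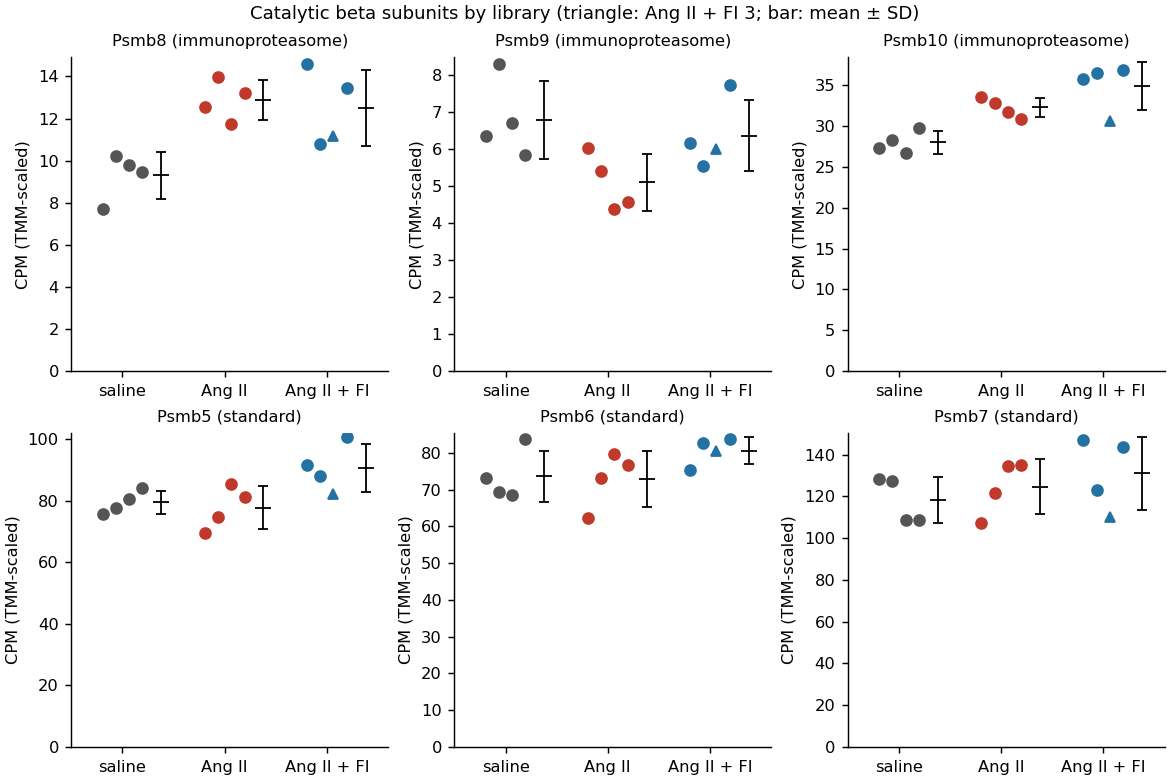
TMM-scaled CPM of the 3 immunoproteasome genes (top) and the standard subunits they replace (bottom) in each library by group, with a cross-bar for mean ± SD and a triangle for Ang II + FI 3. The saline libraries of Psmb8 (7.72 to 10.2 CPM) and Psmb10 (26.6 to 29.8 CPM) lie below all libraries with Ang II. The 3 groups overlap for Psmb9, Psmb5, Psmb6 and Psmb7, though for Psmb5 the FI group does so only through Ang II + FI 3.

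**Figure D3:**
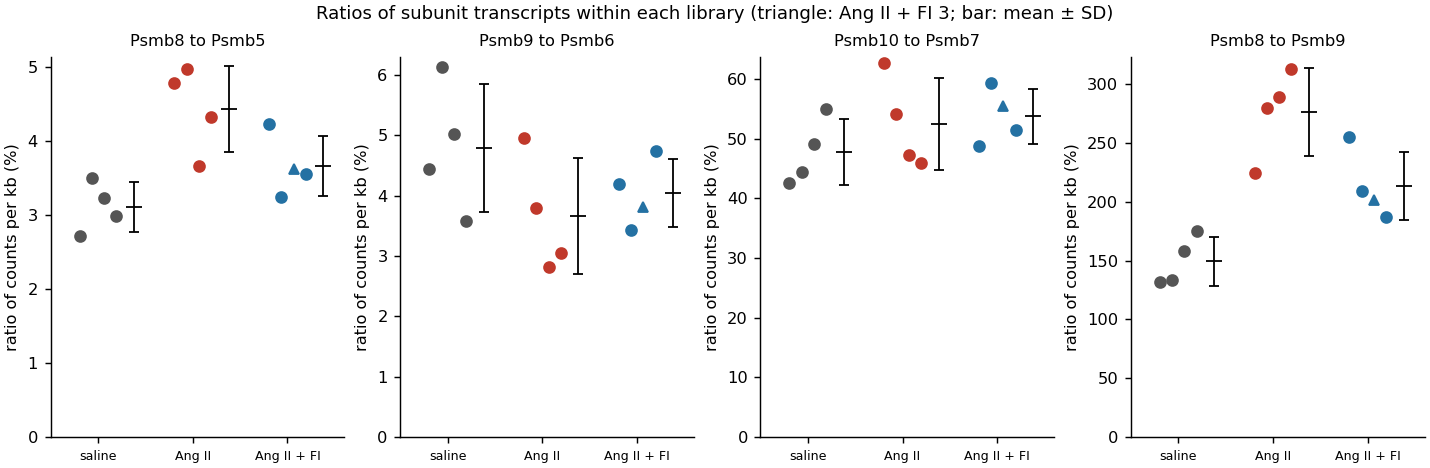
Ratios of counts per kb between pairs of catalytic subunit genes within each library, in percent, with mean ± SD and a triangle for Ang II + FI 3. Psmb8 to Psmb9 runs from 131% to 175% with saline, from 224% to 313% with Ang II and from 187% to 255% with Ang II + FI.

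Markers of white blood cells were higher in the same libraries as Psmb8 and Psmb10. The sum of 8 macrophage markers was 198 to 231 CPM with saline, 307 to 353 CPM with Ang II and 260.3 to 336 CPM with Ang II + FI, and that of 3 pan-leukocyte markers was 30.4 to 39.0, 50.6 to 57.4 and 42.2 to 50.4 CPM. Sums of 8 T and NK cell markers and of 4 B cell markers were low, 1.72 to 6.25 CPM and 1.13 to 4.97 CPM over all libraries, and overlapped. The sum of 5 fibroblast markers was also higher with Ang II, at 965 to 1020 CPM against 677 to 874 CPM with saline, and lay at 761 to 935 CPM with Ang II + FI. The part of these cells in the immunoproteasome values was not tested. In bulk tissue, more cells of a type and more RNA per cell cannot be told apart.

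The 8 partner genes of interferon control and class I presentation, among them Irf1, Tap1 and Tapbp, gave no call in any comparison, and 4 of 8 were above 0 for Ang II against saline. Irf1, the interferon-induced activator of Psmb8 and Psmb9, was at 18.8, 20.9, 23.9 and 16.9 CPM with saline and at 24.7, 25.7, 24.5 and 20.4 CPM with Ang II, a log2 difference of 0.24 ± 0.12 (edgeR adjusted p = 0.33). Tapbp, the chaperone tapasin, stood 0.32 ± 0.16 above Ang II with FI, and 0.16 without Ang II + FI 3, which held 47.3 CPM against 29.9 to 36.1 CPM in the other 3.

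Among the standard genes Ang II left no called difference, and most values lay close to the saline level. By edgeR 0 of 47 proteasome genes were called higher, where 1.57% of all tested genes were, and 0 lower, against 0.662%. At an unadjusted p under 0.05 there were 2 higher (9.37% of all genes) and 3 lower (7.41%). DESeq2 called 1 higher, Psmb8, and 0 lower (2.43% of all genes). limma-voom called none of the 47, against 1.77% of all genes higher and 0.886% lower. Without Ang II + FI 3 edgeR also called Psmb8 alone, and 0 lower (1.37%). Of the 44 standard genes tested 19 lay above 0, against 50.6% of all genes, with a median log2 fold change of −0.003 against 0.005 for all genes. There were again 19 without Ang II + FI 3, against 50.2%. Their values reached from −0.25 for Psme1 to 0.31 for Psmg4. The 95% interval lay wholly within a 1.5-fold change in either direction for 42 of the 44, against 42.8% of all tested genes, many of which have fewer counts. With scaling by library totals alone 25 of 44 lay above 0 (53.4% of all genes), with a median of 0.01, so that the sign of this median follows the scaling.

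By role, the median log2 difference of Ang II from saline was 0.06 for the alpha ring, −0.01 for the standard beta ring, −0.002 for the 19S ATPases and −0.02 for the non-ATPase subunits of the cap. The alpha ring median includes the low-count Psma8, at 0.25 ± 0.43. With scaling by library totals the ATPase median was 0.01. Psma3 and Psma6, alpha subunits, differed by 0.10 ± 0.07 and 0.10 ± 0.09. Psmb1, a non-catalytic beta subunit, stood at 101, 97.6, 93.2 and 87.9 CPM with saline and at 89.3, 121, 112 and 109 CPM with Ang II, a difference of 0.19 ± 0.10 (edgeR adjusted p = 0.37). Its Ang II libraries spanned a wider range than the saline ones and included a value below 3 of them. In the cap, Psmc2 and Psmc6, ATPases of the unfolding ring, differed by −0.11 ± 0.07 and 0.14 ± 0.10. Psmd1 and Psmd2, the large scaffold subunits on which ubiquitin receptors dock, differed by −0.20 ± 0.10 and −0.10 ± 0.11. The replaced subunits Psmb5, Psmb6 and Psmb7 were at −0.03 ± 0.08, −0.01 ± 0.09 and 0.08 ± 0.11.

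The smallest p-values of the standard genes in this comparison belonged to an activator and the inhibitor. Psme1, which with Psme2 forms the interferon-inducible PA28 ring on the core, was at 53.1, 63.8, 55.5 and 63.6 CPM with saline, at 53.7, 48.7, 48.5 and 47.0 CPM with Ang II, and at 50.4, 58.0, 52.7 and 55.9 CPM with Ang II + FI. Only Ang II 1 reached into the saline range. The log2 difference was −0.25 ± 0.08 (edgeR adjusted p = 0.13, 0.0691 to 0.314 over the alternatives). Its partner Psme2, at 27.9, 28.0, 20.7 and 26.4 CPM with saline and 26.2, 27.6, 33.4 and 30.6 CPM with Ang II, differed the other way, by 0.19 ± 0.11 (edgeR adjusted p = 0.43), with overlapping groups. Psmf1, the inhibitor PI31, was at 15.2, 15.5, 15.0 and 15.1 CPM with saline and at 12.8, 11.0, 14.1 and 13.3 CPM with Ang II. It was the 1 standard gene whose Ang II and saline libraries did not overlap in the lower direction (6.11% of all tested genes), and none did so in the higher direction (7.36%), while the 2 immunoproteasome genes Psmb8 and Psmb10 did. The difference was −0.25 ± 0.09 (edgeR adjusted p = 0.19). With FI Psmf1 stood at 14.7, 15.2, 15.9 and 13.3 CPM, overlapping both other groups.

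**Figure D4:**
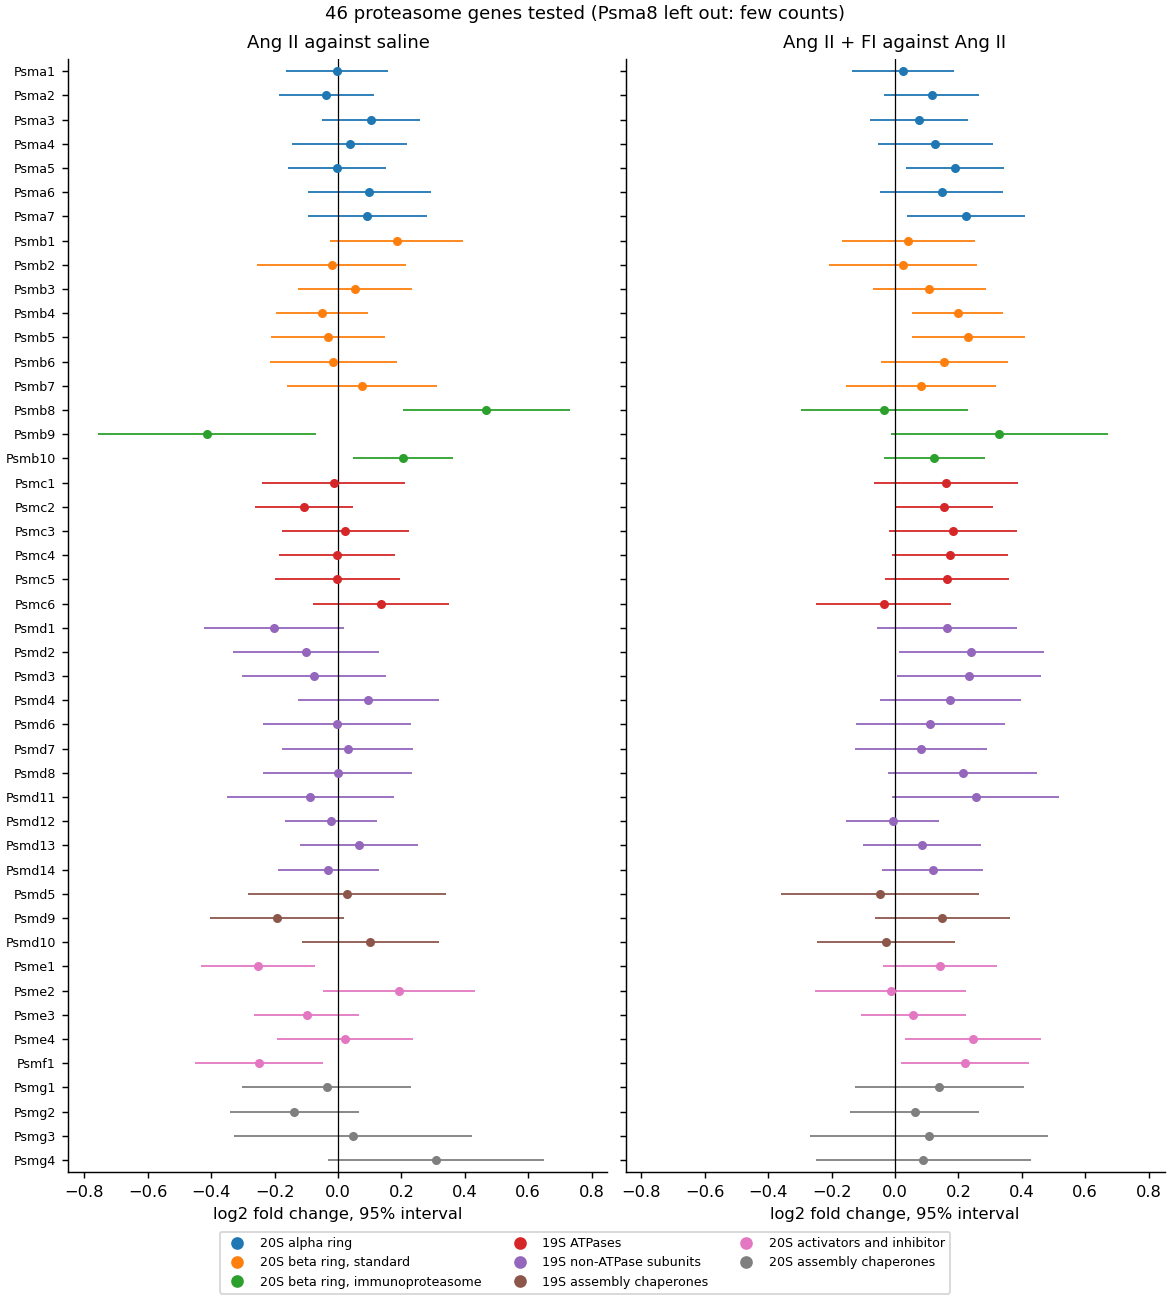
Log2 fold change with its 95% interval for 46 proteasome genes, grouped by role, for Ang II against saline (left) and Ang II + FI against Ang II (right), from the edgeR fit of all 12 libraries. On the left the values of standard genes scatter around 0, with Psmb8 (0.47) and Psmb9 (−0.41) at the extremes, and on the right most points lie slightly above 0.

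When FI was given with Ang II, most proteasome genes were a little higher than with Ang II alone, and none was called. By edgeR 0 of 47 were called in either direction, as were 0% of all tested genes, and DESeq2 (0.0691% of all genes higher, 0.19% lower) and limma-voom (0% in either direction) called none of the 47. Without Ang II + FI 3 edgeR called 0 of the 47 in either direction, against 0% of all genes higher and 0.00565% lower. At an unadjusted edgeR p under 0.05 in the fit of all 12 libraries, 9 were higher (5.46% of all genes) and 0 lower (4.49%). Without Ang II + FI 3 there were 7 higher and 0 lower. Over all genes, 1404 of 17702 then had such a p in either direction. With all 12 libraries 38 of the 44 standard genes lay above 0, against 53.1% of all genes, with a median log2 difference of 0.13 against 0.02. Without Ang II + FI 3 there were 40 of 44 above 0, against 49.5% of all genes, with a median of 0.13. With scaling by library totals there were 34 of 44, against 43.4%, with a median of 0.08 where that of all genes was −0.04. With TMM scaling the values lay between −0.33 for the low-count Psma8 and 0.25 for Psmd11. Of the 44 intervals 43 stayed within 1.5-fold, against 47.4% of all tested genes, many of which have fewer counts. Psmd11, a subunit of the lid, was at 54.5 CPM in Ang II + FI 3 and at 36.9 to 49.3 CPM in the other 3, and its difference was 0.15 without that library. The values then lay between −0.17 for Psma8 and 0.28 for Psme4. Subunits share a library's scaling, so these genes are not separate observations.

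The difference was spread over the core and the cap. Median log2 differences of Ang II + FI from Ang II were 0.12 for the alpha ring, 0.11 for the standard beta ring, 0.16 for the ATPases and 0.16 for the non-ATPase subunits, but −0.03 for the 3 chaperones of the cap. In the same order they were 0.12, 0.14, 0.15, 0.15 and −0.03 without Ang II + FI 3. Psmb4, the beta subunit with the smallest p of any standard gene here, was at 109.7, 115, 123 and 118 CPM with Ang II and at 133, 125, 139 and 132 CPM with FI. The 2 groups did not overlap, as was the case in the higher direction for 3 standard genes (2.09% of all tested genes) and in the lower direction for 0 (3.25%). These counts were 5 (4.37%) and 0 (5.28%) without Ang II + FI 3. The log2 difference was 0.20 ± 0.07 (edgeR adjusted p = 0.41), and 0.16 without Ang II + FI 3.

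Psmb5, the main catalytic subunit, was at 75.6, 77.6, 80.5 and 84.1 CPM with saline, at 69.6, 74.8, 85.3 and 81.2 CPM with Ang II, and at 91.7, 88.1, 82.2 and 101 CPM with Ang II + FI. The overlap with the Ang II group came from Ang II + FI 3, at 82.2 CPM, and Ang II 3, at 85.3 CPM. The difference from Ang II was 0.23 ± 0.08 (edgeR adjusted p = 0.43), and 0.26 without Ang II + FI 3. Psma5 and Psma7, alpha subunits, differed by 0.19 ± 0.07 and 0.22 ± 0.09, and for Psma5 the FI libraries, at 41.8 to 43.3 CPM, lay above the Ang II libraries, at 34.5 to 39.4 CPM. In the cap, the non-ATPase subunits Psmd2 and Psmd3 differed by 0.24 ± 0.11 and 0.23 ± 0.10, and the ATPases Psmc2 and Psmc4 by 0.16 ± 0.07 and 0.17 ± 0.08. Psmb6 and Psmb7 differed by 0.16 ± 0.09 and 0.08 ± 0.11, and Psmb7 by 0.14 without Ang II + FI 3.

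Of the regulators, Psme4 was at 253, 234, 241 and 242 CPM with saline, at 198, 241, 280.3 and 266 CPM with Ang II, and at 314, 299, 261 and 286 CPM with Ang II + FI. The Ang II libraries were the most scattered, and Ang II + FI 3 was again the lowest with FI. The difference of Ang II + FI from Ang II was 0.24 ± 0.10 (edgeR adjusted p = 0.46). That of Psmf1 was 0.22 ± 0.09 (0.17 without Ang II + FI 3), and that of Psme1 was 0.14 ± 0.08. The assembly factors had smaller differences or wider errors. Psmg1 and Psmg2, which pair to build the alpha ring, differed by 0.14 ± 0.12 and 0.06 ± 0.09, and Psmd5, Psmd9 and Psmd10, the chaperones of the cap's base, by −0.05 ± 0.14, 0.15 ± 0.10 and −0.03 ± 0.10. The differences of Psmd5, Psmd9 and Psmg2 were −0.15, 0.09 and 0.12 without Ang II + FI 3. The difference of Psmg1 was 0.02 without Ang II + FI 3, which held 15.5 CPM against 10.8 to 13.1 CPM in the other 3.

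Summarised per library, the median log2 ratio of 43 standard genes to their saline mean was 0.02, −0.03, −0.04 and 0.07 in saline 1 to 4, −0.11, −0.01, 0.06 and 0.06 in Ang II 1 to 4, and 0.09, 0.10, 0.07 and 0.18 in Ang II + FI 1 to 4. Ang II 1 stood lowest and Ang II + FI 4 highest, and Ang II + FI 3 was close to saline 4. As a share of all counts, with no scaling between libraries, the 48 genes took 0.275% to 0.302% in saline, 0.283% to 0.303% in Ang II and 0.299% to 0.318% in Ang II + FI libraries, and these ranges overlapped. The cardiomyocyte marker sum was 30110 to 35362 CPM with Ang II and 31932 to 41655 CPM with FI, highest in Ang II + FI 2 and 4. Other sums separated these groups: 5 endothelial markers summed to 533 to 683 CPM with Ang II and 379 to 529 CPM with FI, and 5 fibroblast markers to 965 to 1020 CPM and 761 to 935 CPM. The part of the cell make-up and of the mitochondrial share in these small differences was not tested.

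**Figure D5:**
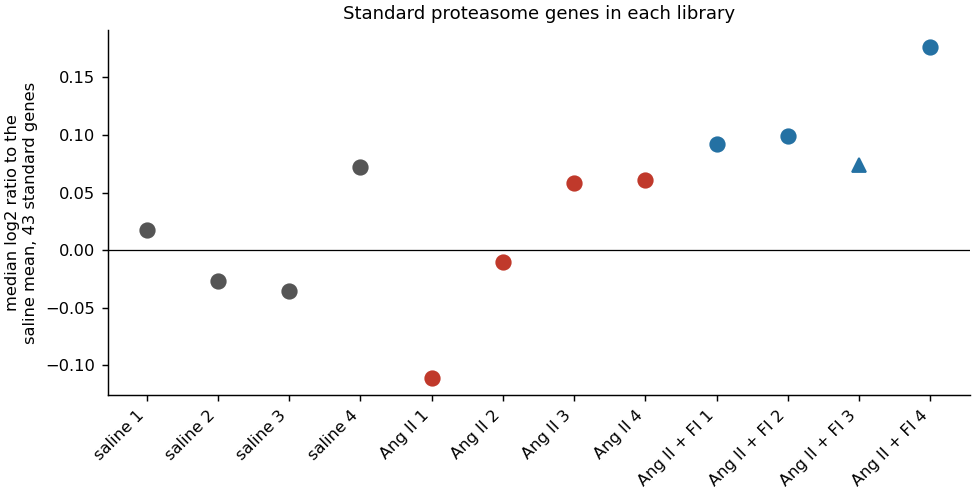
Median over 43 standard proteasome genes of the log2 ratio of TMM-scaled CPM to the saline mean, 1 point per library, with a triangle for Ang II + FI 3. The Ang II + FI libraries lie from 0.07 to 0.18, and the Ang II libraries from −0.11 to 0.06 with Ang II 1 lowest.

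Set against saline, most standard genes also lay a little higher with Ang II + FI, and none of the 47 proteasome genes was called. By edgeR 0 of 47 genes were called (0.719% of all genes higher, 0.259% lower), with 13 higher (10.4%) and 0 lower (6.92%) at an unadjusted p under 0.05. DESeq2 called 3 higher, Psmb8, Psmb10 and Psma7 (2.77% of all genes), and 0 lower (2%), and limma-voom called none (0.696% of all genes higher, 0.334% lower). Without Ang II + FI 3 edgeR called 1 higher, Psmb10, and 0 lower (0.311%). At an unadjusted p under 0.05 that fit gave 11 higher and 0 lower. Over all genes, 2775 of 17702 had such a p in either direction. Of the 44 standard genes 35 lay above 0 (53.4% of all genes), also without Ang II + FI 3 (48.9%), with medians of 0.15 and 0.13, and 33 with scaling by library totals (48.5%). Psma7, the alpha subunit with the smallest p of the standard genes, was at 61.8, 68.1, 65.2 and 60.2 CPM with saline, at 59.0, 66.8, 74.2 and 72.2 CPM with Ang II, and at 86.1, 73.5, 75.2 and 80.8 CPM with Ang II + FI. All 4 FI libraries lay above all saline libraries, which held for 6 standard genes in the higher direction (4.6% of all tested genes) and for 0 in the lower (4.62%). With Ang II + FI 3 left out it held for 11 (8.14%) and for 0 (6.77%). The difference was 0.32 ± 0.09, with an adjusted p of 0.10 by edgeR and 0.0319 by DESeq2. Psmg4, a chaperone of the alpha ring, gave the highest value of the standard genes, 0.40 ± 0.16, and 0.50 without Ang II + FI 3. It was at 3.86, 3.70, 4.33 and 3.74 CPM with saline, at 3.96, 4.66, 5.21 and 5.55 CPM with Ang II, and at 5.17, 5.92, 3.85 and 5.56 CPM with Ang II + FI. This comparison shares its saline libraries with the first and its FI libraries with the second.

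The genes that build and serve the particle from outside were followed from lists of partners. Of 16 assembly factors, ubiquitin receptors and deubiquitinases 15 were found and tested, and none was called by edgeR in any comparison. With 1.57% of all tested genes called higher and 0.662% lower for Ang II against saline, 0 calls among lists of 6 to 15 genes lie near the share over all genes, here and in the other partner lists. For Ang II against saline 8 lay above 0 and 7 below. Ube3c, a ubiquitin ligase bound to the cap, had the smallest p, with 41.1, 37.2, 36.3 and 38.3 CPM with saline, 30.1, 30.0, 34.1 and 32.4 CPM with Ang II, and 32.6, 34.1, 31.0 and 32.6 CPM with Ang II + FI. All libraries with Ang II lay below all saline libraries, and the difference of Ang II from saline was −0.27 ± 0.07 (adjusted p = 0.066 by edgeR and 0.0146 by DESeq2). Sem1, the smallest subunit of the lid, differed by 0.29 ± 0.13 (edgeR adjusted p = 0.27). With FI against Ang II, Pomp, the maturation factor of the core, differed by 0.17 ± 0.08. In that comparison 12 of the 15 lay above 0 (53.1% of all genes), and again 12 without Ang II + FI 3 (49.5%). Scaling by library totals gave 7 of 15 (43.4%).

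Transcription of subunit genes is raised by NRF1 (Nfe2l1) when proteasome activity is short, after its processing by Ddi2 and Ngly1 and with small Maf partners. Of a list of 7 genes of this control none was called by edgeR. Mafk was at 21.6, 23.7, 26.3 and 24.5 CPM with saline, 27.6, 29.5, 28.6 and 34.3 CPM with Ang II, and 28.5, 32.5, 31.5 and 33.8 CPM with Ang II + FI. The saline libraries lay below all others, with a difference of Ang II from saline of 0.32 ± 0.09 (adjusted p = 0.097 by edgeR and 0.0483 by DESeq2). Mafg differed by 0.42 ± 0.25. With FI against Ang II, Vcp, the segregase that extracts NRF1 from the membrane, differed by 0.22 ± 0.10. The difference of Ddi2, 0.40 ± 0.24, rested on Ang II + FI 3, at 47.8 CPM against 19.9 to 25.5 CPM in the other 3, and was 0.03 without it.

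Ubiquitin itself is made from several precursor genes and is activated by E1 enzymes before it is attached to a protein. Of 6 such genes 3 lay above 0 for Ang II against saline and none was called by edgeR. Ubb was at 209, 221, 205 and 229 CPM with saline, 238, 252, 240.2 and 248 CPM with Ang II, and 266, 250.2, 263 and 264 CPM with Ang II + FI. The saline libraries lay below all others. The difference of Ang II from saline was 0.18 ± 0.06 (edgeR adjusted p = 0.15), and that of Ang II + FI from saline was 0.28 ± 0.06 (adjusted p = 0.051 by edgeR and 0.00165 by DESeq2). Rps27a, which encodes ubiquitin fused to a ribosomal protein, differed between Ang II and saline by 0.43 ± 0.13 (adjusted p = 0.12 by edgeR and 0.0477 by DESeq2). Uba6, an activating enzyme, differed between Ang II + FI and Ang II by −0.38 ± 0.16 (edgeR adjusted p = 0.47).

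Across the 11 libraries without Ang II + FI 3, the genes whose log2 CPM followed Psmb8 most closely were Mmp23 (Pearson r = 0.969), Dbndd2 (0.967), Sema3f (0.958), Tspo (0.951) and Cygb (0.950). The highest values among proteasome genes were 0.731 for Psma3 and 0.730 for Psmb10, and among the partners 0.860 for Ubb. These libraries share 3 groups, whose differences enter each r, and the 5 genes were the highest of all tested genes, so the values describe likeness only.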

How the data were processed

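The authors deposited raw counts per gene in 1 table. The submitters' processing notes name GRCm38 and list featureCounts 1.5.0-p3, HISAT and DESeq 1.8.3. Strand setting, annotation release and multimapped reads are not stated there, so genes with processed pseudogenes are less certain. Psmb5, Psmb6 and Psmb7 have such pseudogenes named after them, and pseudogenes under other names were not searched for. Gene IDs served to restore 27 symbols that had become dates. The labels name both TRIzol and an RNeasy kit for extraction. Exon lengths and overlaps came from GENCODE M21 (55154 IDs matched).

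After filterByExpr and TMM scaling, genes were tested by quasi-likelihood in edgeR 4.0.16 (R 4.3.3) in 1 fit of 12 libraries and 3 group means. SEs come from the F statistic. The procedure was run on simulated counts with 1 spread for all genes and known changes of at least 1.5-fold. Most differences of the proteasome genes here were smaller, so that run does not bear on them. Alternatives were DESeq2 1.42.0, limma-voom 3.58.1, other scalings, filters and library sets, and a replicate block. Tables were made in Python 3.11.

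The proteasome genes and gene lists were chosen with earlier results of these data known. Named are the immunoproteasome genes and their counterparts, Psme1 and Psme2, the 2 members or partners of each list with the smallest p for Ang II against saline and for Ang II + FI against Ang II, members with few counts, and the 5 genes most like Psmb8. Psmd11, Tap1, Psma1, the comparison of Ang II + FI with saline for single genes and the ratio of Psmb8 to Psmb9 were added after their values were seen. A few partner genes that this rule names are not reported here.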

Additional observations from a re-analysis of the deposited data

Results flagged for a closer look

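Of 124 groups of 4 libraries examined, 2 had a library far from the other 3, where chance alone flags about 1 in 20. Psmd10, a chaperone of the cap's base, stood at 9.66 CPM in Ang II + FI 4, against 8.62 to 8.77 CPM in the other 3 libraries of its group. Psmb11 was at 0.287 CPM in saline 2 and at 0 in the other 3 saline libraries.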

How the results depend on the processing

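Over 23 alternatives, the count of proteasome genes called stayed at 0 for Ang II + FI against Ang II in each direction, and for lower calls in the other comparisons. For Ang II against saline it was 1 higher with DESeq2. For Ang II + FI against saline it was 3 higher with DESeq2 and 1 with a filter of 1 CPM in 4 libraries. With that filter 179 of all 13389 tested genes were called higher. Leaving out 1 library at a time gave 0 to 1 higher for both, the 1 in each case being without Ang II + FI 3. The medians of the standard genes moved by less than the SD between replicates (0.057). Leaving out 1 library gave −0.021 to 0.035 for Ang II against saline, 0.093 to 0.159 for Ang II + FI against Ang II and 0.122 to 0.152 for Ang II + FI against saline. The sign was reversed for Ddi2: Ang II + FI against Ang II was −0.024 without Ang II + FI 3 and Ang II 3, and Ang II + FI against saline was −0.0424 in that setting and −0.0458 with a replicate block and without Ang II + FI 3. Leaving out 1 library at a time, Ddi2 in Ang II + FI against saline ranged from −0.0424 (without Ang II + FI 3) to 0.481 (without Ang II + FI 4). The replicate numbers did not pair the libraries (correlations of deviations −0.0572 to 0.105 over 12 pairs). With the replicate block 0 proteasome genes were called in each comparison, with medians of −0.003, 0.129 and 0.151. Over all genes it called 105 higher and 19 lower for Ang II against saline in place of 273 and 115, and 51 and 10 in place of 125 and 45 for Ang II + FI against saline. The cause was not tested. Whether depth limited the calls was not tested. Psma8, with 26 to 87 counts, and Psmb11 had too few counts to be compared.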
